A study of Eragrostis tef with 16 samples.

Results

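CBP11 (Et_3A_023424) and CBP12 (Et_3B_027891) are a pair of genes that the study lists as calcium-binding proteins, one on each subgenome of tef (Eragrostis tef), as the A and B in their identifiers show. They are 2 of the 68255 genes in the deposited count table and were taken by identifier from the study's list of 35 differentially expressed Ca2+ signaling genes. That list was drawn up from these same libraries, and the pair was picked with its values known, so the levels and fold changes of CBP11 and CBP12 are a description and carry no p-values. RNA came from tef plants of 1 accession, chosen by the study for a high seed Ca content, that were grown in a hydroponic solution with 0.01 mM Ca (low Ca2+) or 1 mM Ca (control) for about a month. The groups were low calcium roots (LCR), low calcium shoots (LCS), control roots (ConR) and control shoots (ConS), with 4 libraries each. All plants carried the same genotype, and the Ca level of the solution was the only treatment.

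Calcium-binding proteins are the receivers of Ca2+ signals in plant cells. When cytosolic Ca2+ rises, proteins such as calmodulin and its relatives bind it, often through EF-hand loops, change shape and act on target proteins, while other calcium-binding proteins hold Ca2+ in stores such as the endoplasmic reticulum. The name CBP does not say which kind CBP11 and CBP12 are, and the count table holds identifiers without names, so their identity rests on the study's annotation. The pairing of names with identifiers is taken from the study's gene list and could not be checked here against a genome annotation. For some names, such as YSL16, the study's text in places gives a direction unlike that of the identifier here. Each value therefore belongs to the identifier, and whether these identifiers are calcium-binding genes was not tested. Tef is an allopolyploid, in which a gene of subgenome A often has a near-identical partner on subgenome B. Whether CBP11 and CBP12 are such partners was not tested, since no sequence was used here.

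Total counts ran from 6276818 to 10166944 in LCR, from 11587068 to 17659238 in ConR, from 9959542 to 11720368 in LCS and from 14640539 to 15590039 in ConS. On the first principal component all root libraries were negative (-236.1 to -191.3) and all shoot libraries positive (128.5 to 273.6), so every library lay with its labelled tissue. No markers of root or shoot cell types were available to check the tissues further. The second component put LCR S3 (-8.15) next to ConR S11 (-10.1), and values without both are given where they matter. Levels are normalized counts (CPM, counts scaled to library totals that were adjusted by the TMM method), and in whole tissues fewer cells of a type and less RNA per cell cannot be told apart.

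CBP11 was abundant in roots and nearly absent from shoots. Its normalized count in LCR was 98.7 CPM in S1, 58.3 CPM in S2, 87.4 CPM in S3 and 84.2 CPM in S4. In ConR it was 239.7 CPM in S9, 490.7 CPM in S10, 151.3 CPM in S11 and 383.5 CPM in S12. The LCR libraries lay close together and all of them were below all ConR libraries, which were spread widely and of which S11 was the lowest. In LCS the normalized count was 1.72 CPM in S5, 1.28 CPM in S6, 1.35 CPM in S7 and 1.53 CPM in S8, and in ConS it was 1.34 CPM in S13, 1.53 CPM in S14, 1.06 CPM in S15 and 0.532 CPM in S16. The libraries of the shoot groups overlapped, and no shoot library came near any root library. The reads behind these values numbered 665 to 1121 per library in LCR and 2519 to 10058 in ConR, against 11 to 18 in LCS and 7 to 18 in ConS, so the shoot values carry a large counting error.

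CBP12 showed the same arrangement of groups, with fewer reads than CBP11 in every library. In LCR it was 34.1 CPM in S1, 23.0 CPM in S2, 29.5 CPM in S3 and 23.3 CPM in S4. In ConR it was 78.4 CPM in S9, 165.8 CPM in S10, 48.3 CPM in S11 and 110.1 CPM in S12. Again all LCR libraries were below all ConR libraries, and ConR S11 was the ConR library nearest to LCR. In LCS the normalized count was 0.575 CPM in S5, 0.580 CPM in S6, 0.415 CPM in S7 and 0.671 CPM in S8, and in ConS it was 0.503 CPM in S13, 0.425 CPM in S14, 0.386 CPM in S15 and 0.076 CPM in S16. These shoot values rest on 4 to 7 reads per library in LCS and 1 to 6 in ConS, and the groups overlapped. The single read in ConS S16 is under the 3 reads taken here as the limit of detection in a library.

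**Figure D1:**
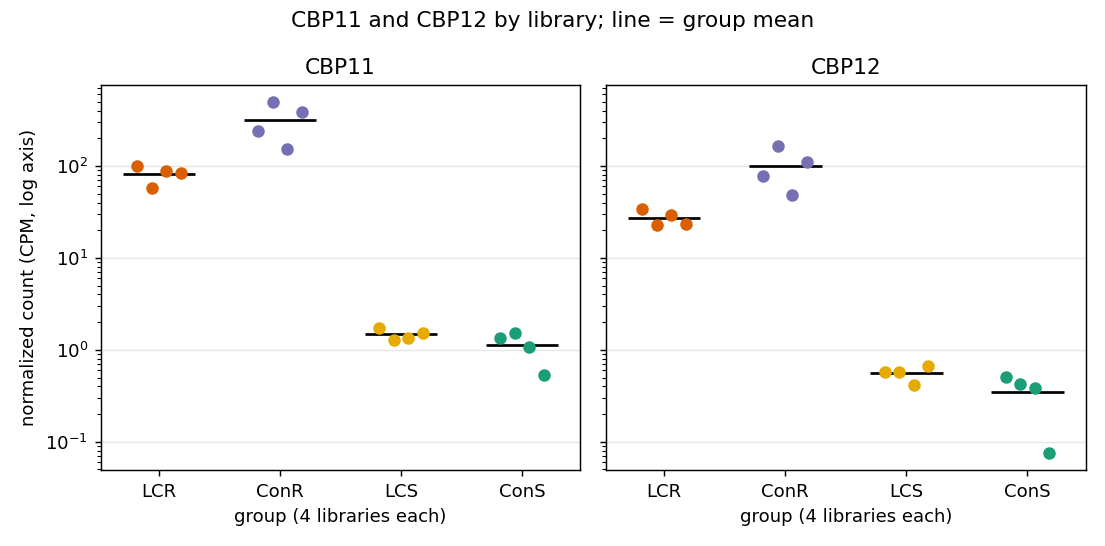
Normalized counts (CPM, log axis) of CBP11 and CBP12 in each of the 16 libraries, by group, with points for libraries and lines for group means. For CBP11 the LCR libraries lie between 58.3 and 98.7 CPM, below the ConR libraries at 151.3 to 490.7 CPM, and all 8 shoot libraries lie under 2 CPM for both genes.

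By group means, the order of levels was ConR, LCR, LCS and ConS for both genes. CBP11 averaged 82.1 ± 17.1 CPM in LCR and 316.3 ± 150.6 CPM in ConR, 1.47 ± 0.201 CPM in LCS and 1.12 ± 0.434 CPM in ConS (SD, n = 4 libraries). CBP12 averaged 27.4 ± 5.35 CPM in LCR and 100.6 ± 50.2 CPM in ConR, 0.560 ± 0.106 CPM in LCS and 0.347 ± 0.187 CPM in ConS (SD, n = 4 libraries). The libraries of neighbours in this order did not overlap, except those of LCS and ConS. Between LCR and ConR, however, the gap was smaller than the SD of ConR for both genes. The coefficient of variation in LCR was 20.8% for CBP11 and 19.5% for CBP12, against 47.6% and 49.9% in ConR, so both genes varied more between control roots than between low Ca2+ roots.

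The comparison of LCR with ConR asks how roots respond to Ca2+ deficiency. CBP11 was lower in LCR than in ConR by a log2 fold change of -1.95 (standard error 0.30), that is, at 26.0% of its mean level in ConR. For CBP12 the value was -1.88 (standard error 0.29), and its mean in LCR was 27.3% of that in ConR. Both genes were among those that passed a false discovery rate of 0.05 in edgeR with lower counts in LCR, which held for 1.33% of the 56746 genes tested, or 755 of the 1832 called in either direction. With DESeq2's size factors 535 of 1867 called genes were lower. The 755 became 165 to 308 when S12, S10 or S9 of ConR or S4, S2 or S1 of LCR was left out, and 1601 without ConR S11. Nothing is read from these counts, because the pair was chosen with this comparison known. For both genes the libraries of LCR and ConR did not overlap, and 7.17% of all genes tested had every LCR library below every ConR library. Among the 31768 genes with a mean log2 CPM of at least 1, 65 had a lower log2 fold change than CBP11 and 74 a lower one than CBP12. Without LCR S3 and ConR S11 the log2 fold changes were -2.21 for CBP11 and -2.14 for CBP12.

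The comparisons of roots with shoots address where in the plant transcripts of the pair accumulated. For ConR vs ConS the log2 fold change was 8.14 (standard error 0.41) for CBP11 and 8.16 (standard error 0.44) for CBP12. These are mean levels 283.4-fold and 289.6-fold higher in ConR than in ConS. Of the 31768 genes above, 8 had a higher log2 fold change in this comparison than CBP11 and 6 a higher one than CBP12. Genes called higher in ConR made up 28.7% of those tested, and both members were among them. For LCR vs LCS the log2 fold change was 5.79 (standard error 0.38) for CBP11 and 5.58 (standard error 0.41) for CBP12, or 55.9-fold and 49.0-fold higher mean levels in LCR. Both were called higher, as were 20% of genes tested, and 306 and 338 of the 31768 genes had a higher log2 fold change. Root and shoot libraries did not overlap for either gene, and such a gap with roots on top held for 25.7% of genes in ConR vs ConS, compared with 19.6% in LCR vs LCS.

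In shoots, LCS and ConS were not separated. The log2 fold change of LCS vs ConS was 0.41 (standard error 0.42) for CBP11 and 0.70 (standard error 0.60) for CBP12, and neither gene was among the 25.8% of genes called in that comparison. Summed over the 4 libraries of each group, CBP11 had 58 reads in LCS and 52 in ConS, which is 1.48 CPM (exact Poisson 95% interval 1.13 to 1.92) in LCS and 1.10 CPM (0.822 to 1.44) in ConS. CBP12 had 22 reads in LCS and 16 in ConS, or 0.562 CPM (0.352 to 0.851) in LCS and 0.339 CPM (0.194 to 0.550) in ConS. These intervals cover counting error only, and reads were not marked as separate molecules. Without ConS S16 the log2 fold change was 0.16 for CBP11 and 0.35 for CBP12. A response of shoots was therefore not called, but the standard errors leave room for changes of more than 1 log2 unit in either gene. Whether the few shoot reads came from shoot cells was not tested.

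Set against each other, the estimated responses of the tissues had opposite signs. No shoot response was called, however, and the shoot values rest on few reads. Most of the difference given next came from roots, where the log2 fold change was -1.95 for CBP11 and -1.88 for CBP12. The log2 response to low Ca2+ in shoots minus that in roots was 2.36 (standard error 0.51) for CBP11 and 2.58 (standard error 0.67) for CBP12. Both genes passed the threshold for this interaction, with 5.91% of genes tested, or 3351 genes. With 1 library left out, that number ran from 2417 without LCR S4 to 5134 without LCS S7. CBP12 did not pass the threshold without LCS S5, where its value was 2.56, or without LCS S8, where it was 2.48. The combination shown by the pair, higher in roots at both Ca levels, lower in LCR than in ConR and not called in LCS vs ConS, held for 164 of the 56746 genes, or 0.289%. This count was 54 to 82 when S12, S10 or S9 of ConR or S4, S2 or S1 of LCR was left out, and 308 without ConR S11. The combination was copied from the calls of the pair itself, so nothing is read from its share. The few shoot reads also left little room for a call in LCS vs ConS.

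CBP11 and CBP12 had nearly the same proportion to each other in LCR as in ConR. In the shoot groups the proportion was known only loosely, since the reads were few. CBP11 took 74.8 ± 2.72% of the reads of the pair in LCR and 75.9 ± 1.27% in ConR (SD, n = 4 libraries). Over the summed reads of a group it took 72.5% in LCS and 76.5% in ConS. The lengths of the genes are not given in the table, so this share does not say which gene is the more highly expressed, and only its change between libraries is described. Log2 of the ratio of CBP11 to CBP12 reads was 1.58 ± 0.211 in LCR and 1.66 ± 0.102 in ConR, a difference of -0.081 with a standard error of 0.117. It was 1.40 ± 0.281 in LCS and 1.88 ± 0.647 in ConS, a difference of -0.48 with a standard error of 0.35. For LCR minus LCS the difference was 0.17 (standard error 0.18), and for ConR minus ConS it was -0.23 (standard error 0.33). Of these differences, only that of LCS and ConS exceeded its standard error, and the standard errors were larger where shoots were compared than in roots alone. That difference rests largely on ConS S16, with 7 CBP11 reads and 1 CBP12 read. Without S16 the mean log2 ratio in ConS was 1.57, nearer to the 1.40 of LCS.

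Single libraries give the share with its counting error. The share of CBP11 had its lowest value among roots in LCR S2, at 71.7% (exact Clopper-Pearson 95% interval 68.7 to 74.6%), and its highest in LCR S4, at 78.4% (75.8 to 80.7%). These intervals did not overlap, so the share varied within LCR by more than the counting error, if each read is taken as a separate molecule. In ConR the share ran from 74.7% (74.0 to 75.5%) in S10 to 77.7% (76.7 to 78.7%) in S12. The intervals of S10 and S12 did not overlap either, so on the same condition the share also varied within ConR by more than the counting error. Reads were not marked as separate molecules, and in both groups the lowest and highest of 4 libraries were compared. Among shoots it was lowest in LCS S6, at 68.8% (41.3 to 89.0%), and highest in ConS S16, at 87.5% (47.3 to 99.7%) of only 8 reads. Within LCR the libraries had the same order for both genes, S1, S3, S4 and S2 from high to low, and within ConR the shared order was S10, S12, S9 and S11. In LCS and in ConS the orders differed. The counts hold uniquely mapped reads, so reads that matched both genes equally well are missing from them. Whether reads of one gene were counted on the other was not tested.

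**Figure D2:**
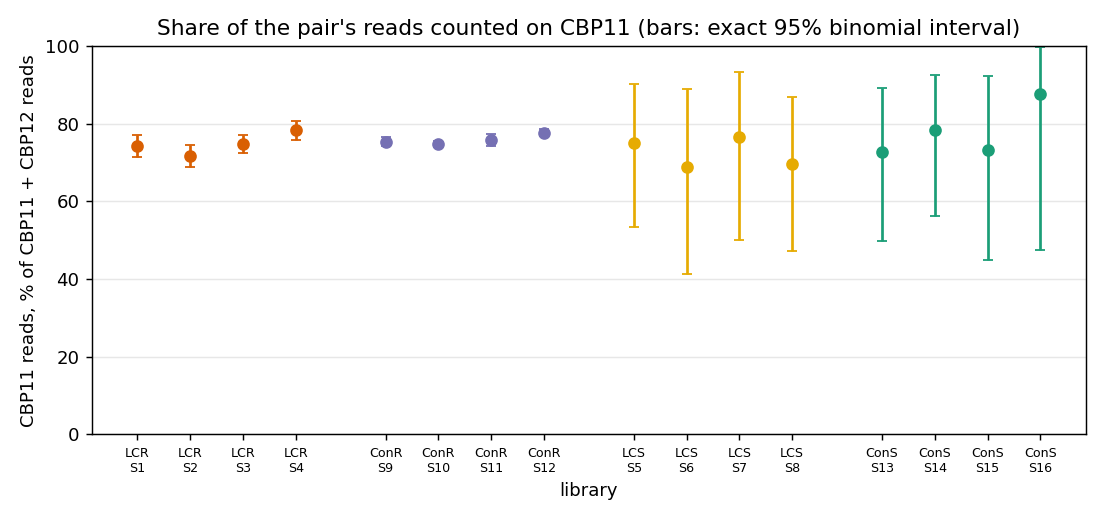
Share of the reads of the pair that was counted on CBP11, in percent, for each library, with exact 95% binomial intervals as bars. The root libraries lie between 71.7% and 78.4% with narrow intervals, and the shoot libraries, with 8 to 24 reads each, between 68.8% and 87.5% with wide ones.

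To find genes with a like pattern, each gene was centred on its mean log2 CPM and the root mean square difference from CBP11 or CBP12 was taken over the 16 libraries. Among 31767 other genes with a mean log2 CPM of at least 1, each of the pair was the gene most like the other, at 0.25 log2 units. The 16 points fall into 4 groups by tissue and Ca level, so the measure reflects mainly the difference between roots and shoots. The second in order for both was Et_6B_049698, at 0.44 from CBP11 and 0.47 from CBP12, for which the table gives no name. It averaged 20.3 ± 6.16 CPM in LCR and 88.3 ± 34.3 CPM in ConR, and 0.366 ± 0.143 CPM in LCS and 0.302 ± 0.124 CPM in ConS (SD, n = 4 libraries). Over the 8 root libraries alone, an alternative chosen after seeing the data, each again came first for the other, at 0.15 log2 units. Et_5A_042990, also named after its values were seen, was second there, at 0.19 from CBP11 and 0.16 from CBP12.

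The third gene in order for both over 16 libraries was YSL16 (Et_3B_031448), which the study lists among metal transporters under that name, a pairing that was not checked, and which is named here after its values were seen. Yellow stripe-like proteins carry iron and other metals bound to nicotianamine or related chelators across membranes. YSL16 averaged 49.4 ± 19.7 CPM in LCR and 162.9 ± 46.3 CPM in ConR, 0.819 ± 0.134 CPM in LCS and 0.865 ± 0.184 CPM in ConS (SD, n = 4 libraries). The distance of YSL16 was 0.52 log2 units from CBP11 and 0.50 from CBP12. Within the 8 root libraries it stood only 173rd in likeness to CBP11 and 108th in likeness to CBP12. Nramp5 (Et_5A_041086), a member of the Nramp family of divalent metal transporters that was also named after its values were seen, stood 19th for CBP11 and 6th for CBP12 over 16 libraries, and 57th and 69th over the 8 root libraries. Unlike the pair, Nramp5 was called higher in LCS than in ConS (log2 fold change 1.58, standard error 0.40, adjusted p = 0.00711 in edgeR).

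**Figure D3:**
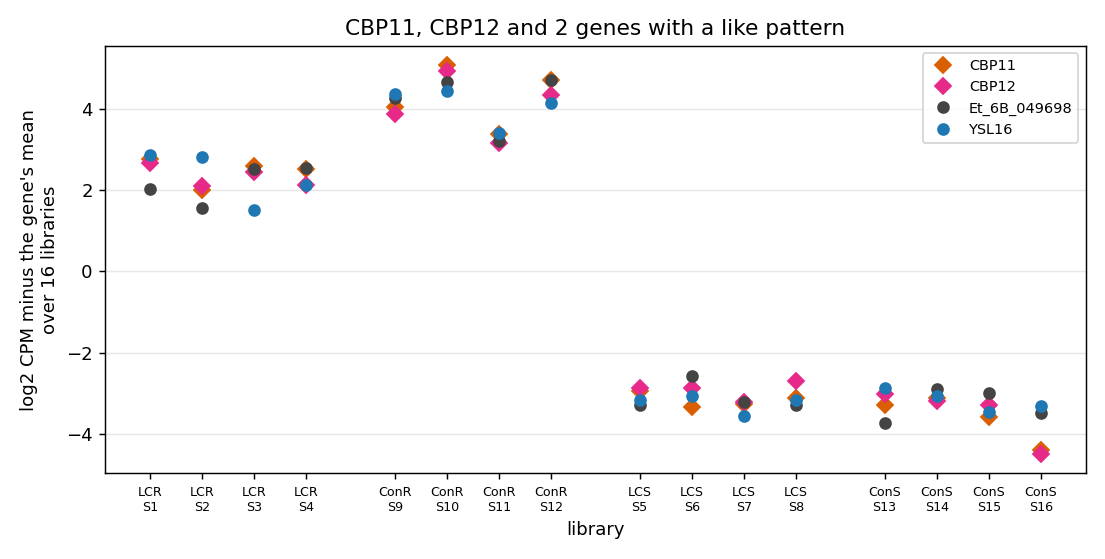
Log2 CPM of CBP11, CBP12, Et_6B_049698 and YSL16 in each library, after subtraction of each gene's mean over the 16 libraries. The 4 genes lie close together in most libraries, highest in ConR, lower in LCR and lowest in the shoot groups, and YSL16 departs from CBP11 within LCR.

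Over the 16 libraries, none of the other 33 listed signaling genes was close to the pair. Over the 8 root libraries alone the nearest was CBP1, described below. The nearest over 16 libraries were CDPK2, CDPK1 and CDPK12, calcium-dependent protein kinases that couple Ca2+ binding to phosphorylation, at 1.99, 2.19 and 2.31 log2 units from CBP11 and 1.84, 2.04 and 2.14 from CBP12. CDPK2 (Et_9B_064669) averaged 9.36 ± 1.66 CPM in LCR and 11.8 ± 5.39 CPM in ConR, 1.26 ± 0.203 CPM in LCS and 0.724 ± 0.260 CPM in ConS (SD, n = 4 libraries). The log2 fold change of CDPK2 was 3.98 for ConR vs ConS (standard error 0.33, adjusted p = 6.72e-09 in edgeR) and -0.33 for LCR vs ConR (standard error 0.26, adjusted p = 0.50). CDPK12 (Et_4A_032792) was lower in LCR than ConR, with -1.13 (standard error 0.15, adjusted p = 0.00125). These adjusted p-values are from edgeR's quasi-likelihood test over all genes.

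The other 15 listed CBP genes mostly ran the other way between tissues. In ConR vs ConS, 9 of the 15 were called lower and 5 (CBP3, CBP4, CBP5, CBP14 and CBP15) higher, with a median log2 fold change of -1.59 and a range of -2.82 to 1.62, where the median over all genes tested was 0.097. In LCR vs LCS, 9 were called lower and 4 (CBP4, CBP5, CBP13 and CBP15) higher, with a median of -0.99 against -0.027 for all genes. The range there was -2.43 to 1.13, so CBP11 and CBP12 lay above every other CBP in both comparisons. The share called in either direction was 52.4% of all genes in ConR vs ConS, compared with 42.7% in LCR vs LCS, and because the list was itself drawn from these libraries its calls are no independent evidence.

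In LCR vs ConR, CBP1 (Et_1B_010286) alone of the 15 was called, with a log2 fold change of -1.15 (adjusted p = 0.0182 in edgeR), where 3.23% of all genes were called. The 1832 genes behind that share became 427 to 724 when S12, S10 or S9 of ConR or S4, S2 or S1 of LCR was left out, and 3565 without ConR S11. The median of the 15 was -0.13, against 0.033 for all genes. No CBP was called without LCR S2, LCR S4 or ConR S10, and 2 were called without LCR S3. Over the 8 root libraries CBP1 was also the listed gene most like the pair, at 0.52 log2 units from CBP11 and 0.50 from CBP12. Unlike the pair, CBP1 was called lower in LCS than in ConS (log2 fold change -1.56, adjusted p = 0.000147) and lower in ConR than in ConS (-1.85, adjusted p = 2.82e-06). In LCS vs ConS, CBP8, CBP9 and CBP10 were also called lower and CBP2 higher, which makes 5 of 15 called where 25.8% of all genes were.

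Of the 14 CDPKs, CDPK12 and CDPK13 were called lower in LCR than ConR and none higher, where 3.23% of all genes were called in either direction. CDPK13 (Et_4B_036955) had a log2 fold change of -1.07 (adjusted p = 0.00321 in edgeR). All 14 were called in ConR vs ConS, where 52.4% of all genes were, 11 of them higher in ConR and CDPK4, CDPK5 and CDPK11 lower, with a median log2 fold change of 1.37 and a highest value of 3.98. In LCR vs LCS, where 42.7% of all genes were called, 10 were called higher and the same 3 lower. In LCS vs ConS, with 25.8% of all genes called, CDPK6 and CDPK12 were called higher and CDPK4, CDPK5, CDPK7, CDPK8 and CDPK11 lower, and the number called was 4 without LCS S5 and 3 without LCS S8 or ConS S15. The 3 calcium/calmodulin-dependent kinases CCDSTK1, CCDSTK2 and CCDSTK3 and the gene listed as calcineurin B were all called between roots and shoots. CCDSTK1 was lower and the other 3 were higher in roots. None of these 4 was called in LCR vs ConR and all 4 were in LCS vs ConS, or 2 of 4 without any one of LCS S5, LCS S8, ConS S13, ConS S14 and ConS S15. Among the 35 listed genes, CBP11 and CBP12 had the lowest log2 fold changes in LCR vs ConR and the highest in both comparisons of roots with shoots.

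**Figure D4:**
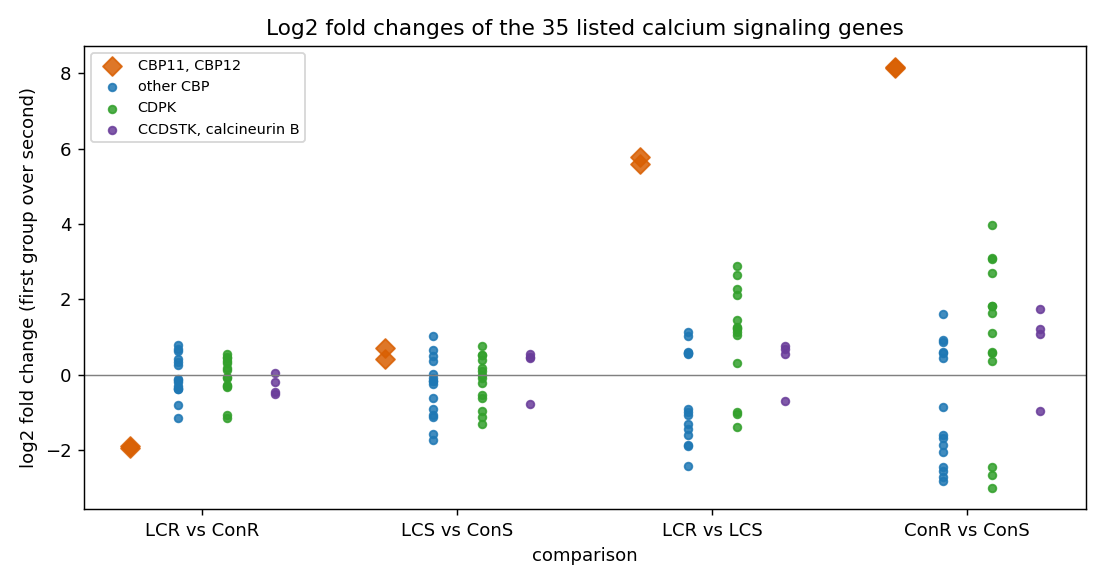
Log2 fold changes (first group over second) of the 35 listed Ca2+ signaling genes in 4 comparisons, with CBP11 and CBP12 as diamonds and the other CBP genes, the CDPKs and the CCDSTK genes with calcineurin B as circles. The diamonds lie at -1.95 and -1.88 for LCR vs ConR and at 8.14 and 8.16 for ConR vs ConS, outside the range of the other listed genes.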

How the data were processed

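Roots and shoots of tef were sequenced in 16 libraries as paired-end reads. According to its methods, reads were trimmed, mapped with HISAT2 to a draft assembly of tef and, where they mapped uniquely, assigned to exons by HTSeq with the reverse strand setting. The table deposited by the authors holds these raw counts, without normalization or pooling. All 16 columns were used and matched to the samples by title. The libraries keep the S numbers of their titles.

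The counts were fitted by the quasi-likelihood method of edgeR 4.0.16 after TMM scaling (R 4.3.3), with a term per group over all libraries. A gene entered the fit if at least 4 libraries had a count above 0, which left 56746 genes. Genes were called at a Benjamini-Hochberg adjusted p below 0.05 over all genes tested. The study used DESeq2, which was run as an alternative (DESeq2 1.42.0). Standard errors are the fitted log2 fold change over the root of its F statistic. Log2 CPM had a prior count of 2. No replicate pair agreed within sampling noise (chi-square per degree of freedom of at least 4.86). The fitting steps were also tested on simulated data with known changes.

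The genes named were CBP11 and CBP12, the 3 listed signaling genes and the 2 genes of the whole table most like each of them, and others where a count of 5 or fewer was given. YSL16, Nramp5 and Et_5A_042990 were named outside this rule, after their values were seen. The members and the gene lists were chosen with earlier results of these data known. Alternatives were DESeq2's size factors, no filter, filterByExpr, DESeq2, the fit without LCR S3 and ConR S11, and each library left out. Sequences and positions are not given, as no genome was used.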

Additional observations from a re-analysis of the deposited data

How the results depend on the processing

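CBP11 and CBP12 kept their sign in all 4 comparisons and in the interaction under every alternative run. With 1 library left out, the log2 fold change of LCR vs ConR ranged from -2.18 to -1.65 for CBP11 and from -2.11 to -1.53 for CBP12, and that of ConR vs ConS from 7.85 to 8.37 and from 7.80 to 8.42. The log2 ratio of CBP11 to CBP12 reads in ConS ranged from 1.57 to 2.04.

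The number of other CBP genes called in LCR vs ConR, 1 as reported, was 2 with filterByExpr, 3 with DESeq2, 2 without LCR S3 and ConR S11, and 0 to 2 with 1 library left out. In LCS vs ConS, leaving out 1 library gave 3 to 7 called CDPKs and 2 to 4 called genes among the CCDSTK genes and calcineurin B. Over all genes, 1832 were called in LCR vs ConR, 4636 with DESeq2, 4354 without LCR S3 and ConR S11, and 427 to 3565 with 1 library left out. Alternatives for the next counts were added after seeing the data. The 755 genes called lower in LCR vs ConR were 1692 with DESeq2 and 1964 without LCR S3 and ConR S11. The 3351 called in the interaction were 5199 with DESeq2 and 2478 without LCR S3 and ConR S11. The 164 with the combination of calls of the pair were 329 with DESeq2 and 287 without LCR S3 and ConR S11. In LCS vs ConS, 14619 were called, and 9483 without LCS S8. The cause was not tested.

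No paired analysis was possible because the labels number the libraries S1 to S16 and no number is shared between groups. Low read counts limit the shoot values, which rest on 1 to 18 reads per gene and library. Total counts were 9959542 to 11720368 in LCS and 14640539 to 15590039 in ConS, against 6276818 to 10166944 in LCR.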
